A study of Equus caballus with 28 samples.

Results

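The let-7 family of miRNAs was described across endometrium, uterine fluid (UF), embryo and yolk sac (YS) fluid of the horse. Its 7 members were the rows of the known mature miRNAs named let-7 with a letter (eca-let-7a, eca-let-7c, eca-let-7d, eca-let-7e, eca-let-7f and eca-let-7g), together with eca-miR-98, a miRNA of the same family under another name. They were 7 of 690 known miRNAs counted, of which 362 had a read, beside 154 predicted miRNAs. The series held 28 small RNA libraries of samples taken 13 days after ovulation. Cyclic mares, left unbred, gave 4 uterine biopsies and 4 UF samples. Pregnant mares, inseminated with semen of the same stallion, gave 5 uterine biopsies, 5 UF samples, 5 embryos and 5 YS fluids. The biopsies are called endometrium here, after the sampling the study describes. Each mare served as her own control in a switch-back design, ovulation was induced with hCG in the cycles sampled, and a sample's replicate number was read as that of the mare. No cyclic library of mare 5 was used here. UF was taken up with an intrauterine tampon before the uterus was flushed for the embryo, and the biopsy followed. YS fluid was aspirated from the recovered conceptus and the embryonic tissue was kept without its capsule. Each of these samples is a mixture of cells or a fluid, so fewer cells of a type and less of a miRNA per cell cannot be told apart.

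The let-7 miRNAs silence messenger RNAs through a seed sequence shared by the family, and are known for their role in developmental timing. In stem cells and early embryos the RNA-binding protein LIN28 blocks the maturation of let-7 precursors, and mature let-7 accumulates as cells differentiate. Known targets in mammals include LIN28 itself, HMGA2, MYC and members of the RAS family. Several let-7 genes are transcribed in clusters with miRNAs of the miR-99/100 and miR-125 families. Among horse genes of RefSeq (assembly TB-T2T, used for names and neighbours only), 8 genes matched the 7 members. A let-7a gene lay beside MIR100 and MIR125B, the let-7c gene beside MIR99A-2 and MIR125B-2, the let-7e gene beside MIR99B and MIR125A, and the let-7d and let-7f genes beside each other.

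Fluid RNA was extracted with a serum and plasma kit and tissue RNA with a combination of column kits, so a fluid and a tissue cannot be told apart from their kits. Library totals were 280065 to 590593 reads in pregnant endometrium and 61836 to 371630 in cyclic endometrium. They were 79173 to 152860 reads in pregnant UF, 62087 to 226308 in cyclic UF, 28204 to 44768 in embryos and 4352 to 14531 in YS fluid. In the YS fluids the rarer members therefore rested on a few reads each. The YS library of mare 4 was the smallest and stood apart from the other YS libraries in its let-7 share, and values of YS fluid are given with and without it where it moved them. The family differs by few bases between members, and how reads that match several of them were divided is not given in the sources used here. The near-identical entries miR-199a-3p and miR-199b-3p had equal counts in 19 of 28 libraries and differed by at most 11 reads, so reads matching both appear to have been counted for each. The split among let-7 members, the sum of the family and the correlations between members are uncertain for this reason.

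The let-7 family made up at least 28.8% of the miRNA reads in every maternal library, and at most 1.71% in an embryo. In cyclic endometrium the 7 members together took 39.3%, 40.7%, 41.0% and 38.4% of the miRNA reads in mares 1 to 4. In pregnant endometrium they took 45.2%, 38.5%, 45.2%, 37.0% and 28.8% in mares 1 to 5. Cyclic and pregnant endometrium overlapped, with means of 39.8% ± 1.22 (SD, n = 4) and 38.9% ± 6.80 (SD, n = 5). UF held a comparable share of the family. The values were 38.1%, 31.8%, 58.4% and 37.5% in cyclic UF, a mean of 41.4% ± 11.7 (SD, n = 4). They were 37.8%, 37.7%, 38.4%, 43.4% and 37.1% in pregnant UF, a mean of 38.9% ± 2.57 (SD, n = 5). The 4 maternal groups overlapped, and the cyclic UF of mare 3 had the largest share of all libraries.

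In embryos the family took 0.716%, 0.467%, 1.51%, 1.35% and 1.71% of miRNA reads in mares 1 to 5, from 202, 209, 548, 391 and 709 let-7 reads. The mean was 1.15% ± 0.535 (SD, n = 5). In YS fluid it took 3.39%, 1.16%, 2.50%, 11.6% and 3.26%, from 257, 167, 326, 503 and 473 let-7 reads. The mean was 4.37% ± 4.11 (SD, n = 5), or 2.57% ± 1.02 (SD, n = 4) without mare 4. No embryo or YS library reached the lowest maternal library, whereas embryo and YS libraries overlapped with each other. Within the conceptus, the read share was higher in YS fluid than in the embryo of 5 of 5 mares. Under the scaling given next this did not hold for mare 3.

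**Figure D1:**
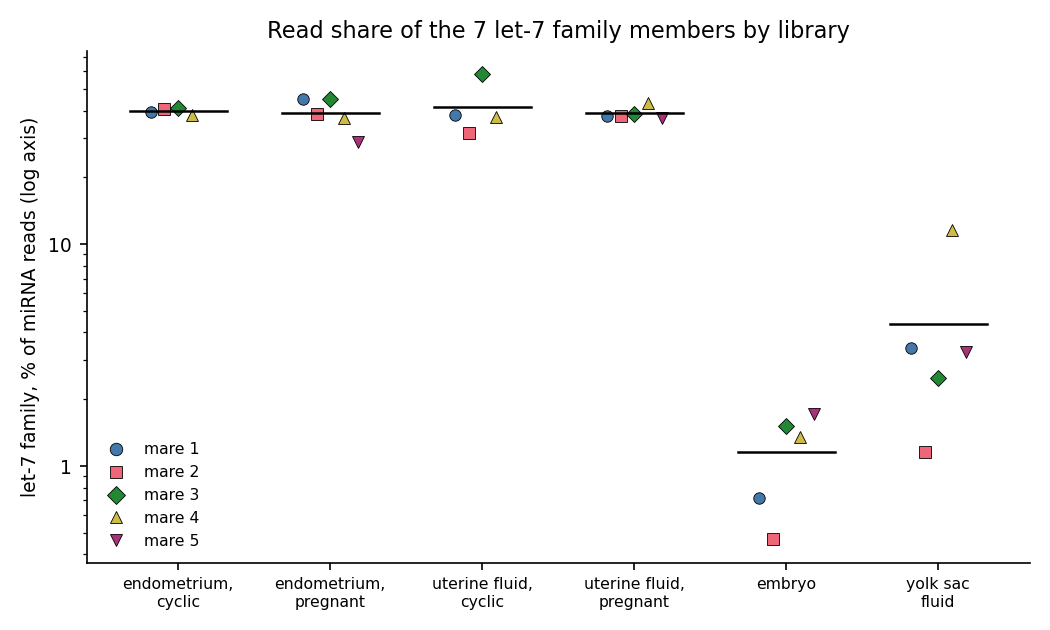
Read share of the 7 let-7 family members in each library, as % of miRNA reads on a log axis, for the 6 groups; symbols mark the mare and the black line the group mean. The maternal libraries lie between 28.8% and 58.4%, the embryos between 0.467% and 1.71% and the YS fluids between 1.16% and 11.6%.

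A change in scaling moved these levels. Normalized by TMM over 28 libraries, which scales each library by the bulk of its miRNAs, the summed level was highest in pregnant endometrium at 670298 CPM (reads scaled by the normalized library total). Cyclic endometrium followed at 638816, cyclic UF at 608544, pregnant UF at 547189, YS fluid at 20962 and the embryo at 6742 CPM. Neighbours in that order overlapped in their ranges, except pregnant UF and YS fluid. Without the YS library of mare 4 the YS mean was 8753 CPM. On this scale YS fluid was below the embryo in mare 3, at 5819 against 9455 CPM, and above it in the other mares. Endometrium of pregnant mares exceeded the embryo 99.4-fold on the TMM scale and 33.8-fold by read share, and YS fluid 31.98-fold and 8.91-fold. Without mare 4 of YS fluid the latter ratios were 76.6-fold and 15.1-fold. By read share, the lowest pregnant endometrium was 16.8-fold above the highest embryo and 2.49-fold above the highest YS fluid, or 8.50-fold without mare 4. Levels of the sum are descriptions without a test.

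The first question was how far the conceptus and the maternal compartments differed in each member. Each comparison was tested with edgeR's quasi-likelihood test on its own libraries. A miRNA was called at an FDR, the Benjamini-Hochberg adjusted p over all miRNAs tested, of at most 0.05 with a fold change of at least 2. Against pregnant endometrium, 7 of 7 members were lower in the embryo, where 42.6% of all 359 miRNAs tested were called lower. The groups did not overlap for 7 of 7, as for 37.9% of all tested in that direction. Of these members, let-7a, the most abundant, had 89, 80, 263, 181 and 360 reads in the embryos of mares 1 to 5, which was 0.316%, 0.179%, 0.726%, 0.627% and 0.869% of miRNA reads. In pregnant endometrium it took 21.5%, 18.7%, 21.7%, 18.7% and 14.3% of reads. The embryo values were all below 1% and the endometrial values all above 14%. The log2 fold change of let-7a was −6.50 ± 0.45 (SE, FDR 2.54e-07, edgeR). The largest decrease was that of let-7d, which fell by 6.63 on the log2 scale (SE 0.40, FDR 2.13e-07, edgeR). The smallest was that of miR-98, which fell by 5.25 (SE 0.47, FDR 2.01e-06, edgeR) and had 2 to 11 reads per embryo. The remaining members, let-7c, let-7e, let-7f and let-7g, lay between −6.56 and −6.05.

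The median member changed by −6.40 on the log2 scale, against a median of −1.03 over all miRNAs tested. Relative to that median it changed by −5.37 with TMM, by −5.42 with RLE size factors and by −5.36 with library totals alone. A change of scaling shifts all miRNAs of a comparison nearly alike, so this difference could hardly move and is no check of the scaling. Library totals alone moved the median of all tested to 0.30.

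YS fluid resembled the embryo in direction. Against pregnant endometrium, 7 of 7 members were lower in YS fluid, where 35.2% of all 341 miRNAs tested were called lower. Again the groups did not overlap for 7 of 7, as for 37.8% of all tested in that direction. let-7a took 1.57%, 0.623%, 1.17%, 5.49% and 1.67% of reads in the YS fluids of mares 1 to 5, from 90 to 242 reads. Its log2 fold change was −5.07 ± 0.64 (SE, FDR 6.39e-06, edgeR). Over the members the log2 fold changes lay between −5.20 for let-7e and −4.52 for miR-98, and the median of all tested was −0.84. Without mare 4 the decrease was larger, with let-7a at −6.14 and let-7c at −6.35, and 7 of 7 remained called. miR-98 was counted with 2, 5, 4, 5 and 4 reads in the YS fluids, so its value was the least precise.

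UF gave the same direction as endometrium when set against the conceptus. These comparisons share the embryo and YS libraries with those above, so their values are given side by side. In the embryo, 7 of 7 members were lower than in pregnant UF, from −7.04 for let-7d to −6.41 for let-7e on the log2 scale, where 38.7% of all 310 tested were called lower. The groups did not overlap for any member, as for 31.9% of all tested in that direction. In YS fluid, 7 of 7 members were lower than in pregnant UF, from −5.41 for miR-98 to −4.89 for let-7e, where 36.1% of all 277 tested were called lower, again without overlap for any member, as for 29.6% of all tested. let-7a changed by −6.65 ± 0.43 (SE, FDR 9.60e-08, edgeR) in the embryo and by −5.04 ± 0.44 (SE, FDR 1.58e-07, edgeR) in YS fluid. Without mare 4 of YS fluid let-7a was at −5.51 and let-7c at −5.89, and 7 of 7 remained called. The medians of all tested were −0.23 and −0.54.

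Between embryo and YS fluid, 0 of 7 members were called, where 35.1% of all 259 miRNAs tested were called in either direction. At an unadjusted p under 0.05, let-7a, let-7c and let-7d were lower in the embryo. The log2 fold changes were all negative, from −1.74 for let-7d (SE 0.74, FDR 0.0780, edgeR) to −0.85 for let-7f (SE 0.57, FDR 0.248, edgeR). let-7a changed by −1.28 ± 0.54 (SE, FDR 0.0791, edgeR). The median of all miRNAs tested was 0.28. These calls depended on the fit. DESeq2 called 4 of 7 members lower in the embryo, where it called 15.8% of all tested lower, and a fit of 28 libraries called 6 of 7, where the share was 16.8%. With library totals alone 4 of 7 were called lower, where the share was 21.2%. Without mare 4 the change of let-7a was −0.81 ± 0.48 (SE, FDR 0.225, edgeR).

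**Figure D2:**
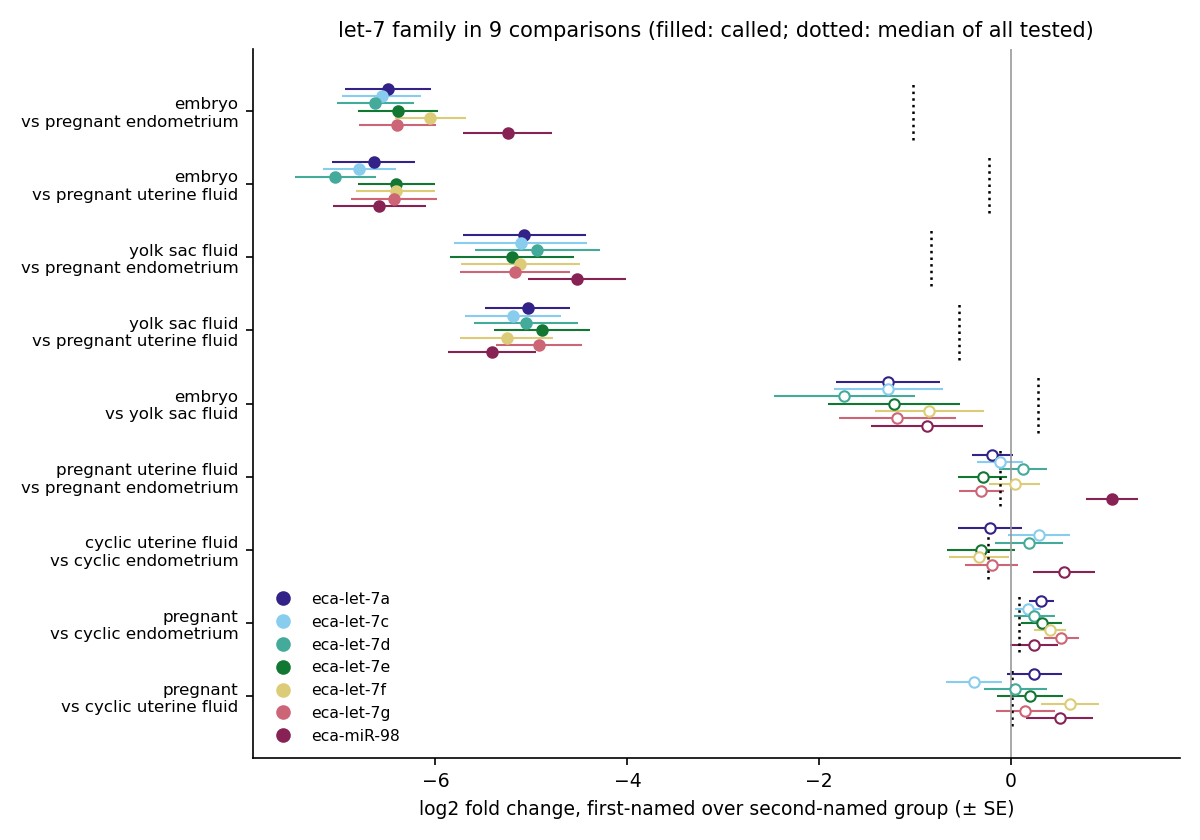
log2 fold change of each let-7 member (x axis, with its SE) in the 9 comparisons, the first-named over the second-named group; filled points were called and dotted lines mark the median of all miRNAs tested. The 28 points of embryo or YS fluid against a maternal compartment are filled and lie between −7.04 and −4.52, and of the other 35 points the point of miR-98 in pregnant UF against pregnant endometrium is filled.

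Beside these differences stood the miRNAs of other cell types abundant in endometrium. The stromal and smooth muscle list (miR-143, miR-145, miR-214 and the miR-199 family) took 2.64%, 1.75%, 2.47%, 2.59% and 5.69% of reads in pregnant endometrium of mares 1 to 5. In embryos it took 0.0567%, 0.0246%, 0.0967%, 0.0693% and 0.114%, from 11 to 47 reads. In YS fluid it took 0.198%, 0.0623%, 0.153%, 0.689% and 0.165%, from 9 to 30 reads. The list sums miR-199a-3p and miR-199b-3p, so reads matching both appear to count for each in its reads, shares and ratios. The embryos fell in the same order by this list and by let-7, with mare 2 lowest, then mares 1, 4, 3 and 5. The YS fluids also fell in the same order by both, with mare 2 lowest, then mares 3, 5, 1 and 4. The YS fluid of mare 4, the highest in let-7, was thus the highest in stromal miRNAs too. The other marker lists, given below, fell in other orders.

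Reads of let-7 per read of the stromal list overlapped between the conceptus and the endometrium. They were 12.6, 19.0, 15.7, 19.6 and 15.1 in the embryos of mares 1 to 5, and 17.1, 18.6, 16.3, 16.8 and 19.7 in the YS fluids. In pregnant endometrium they were 17.1, 21.97, 18.3, 14.3 and 5.06, and in cyclic endometrium 10.6 to 16.2. The embryo mean was 16.4 ± 2.88 (SD, n = 5) and the YS mean 17.7 ± 1.41 (SD, n = 5). Both lay within the range of pregnant endometrium, whose mean was 15.4 ± 6.38 (SD, n = 5). That range was wide through the 5.06 of mare 5, and the conceptus ratios were taken over 9 to 47 stromal reads. The ratio and the orders of libraries were not among the planned descriptions, and the ratio was taken for the stromal list alone. In UF the values were higher, 46.0 to 1038 in pregnant and 83.7 to 740 in cyclic mares, without overlap with endometrium. As a share of the endometrial mean, the embryos held 2.96% for let-7, 2.38% for the stromal list, 3.07% for the erythroid list (miR-451, miR-144 and miR-486-5p), 4.18% for the leukocyte list and 7.003% for miR-126 of endothelium. The YS fluids held 11.2%, 8.37%, 9.25%, 17.01% and 10.1%, and without mare 4 they held 6.61%, 4.77%, 6.43%, 13.9% and 8.37%. In embryos the let-7 value lay nearest to that of the erythroid list, then to that of the stromal list. In YS fluid it lay nearest to that of miR-126, and without mare 4 to that of the erythroid list. By the erythroid list the embryos rose over mares 2, 1, 3, 4 and 5. They rose over mares 5, 1, 2, 4 and 3 by the leukocyte list, and 2, 1, 3, 5 and 4 by miR-126. The YS fluids rose over mares 3, 1, 5, 2 and 4 by the erythroid list. By the leukocyte list they rose over mares 2, 3, 1, 5 and 4, and by miR-126 over 5, 2, 1, 3 and 4. For epithelial miRNAs, the miR-200 family and miR-205, the summed shares were 195% and 146%, or 148% without mare 4 of YS fluid. By library totals miR-200b alone was at 76976 CPM in embryos and 47459.6 in YS fluid, against 17544 in pregnant endometrium. In the fits the list was mixed. In the embryo 3 of 6 were lower, where 42.6% of all tested were called lower, and the median was −1.34. There 1 was higher, miR-429, where 28.7% of all tested were called higher. In YS fluid 3 of 6 were lower and 0 higher, with a median of −1.91. There 35.2% of all tested were called lower and 17.9% higher.

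Some defining markers had no read. In the embryos miR-199a-5p and miR-214 of the 7 stromal miRNAs, miR-144 of the 3 erythroid and miR-142-3p and miR-150 of the 5 leukocyte miRNAs were at 0 in every library. In YS fluid the miRNAs at 0 were miR-145 and miR-199b-5p, miR-144, and miR-142-5p, miR-142-3p, miR-223 and miR-150. At these depths a count of 0 allows up to 3 reads per library. The part of these cell types in the let-7 reads of embryo and YS fluid was not tested.

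**Figure D3:**
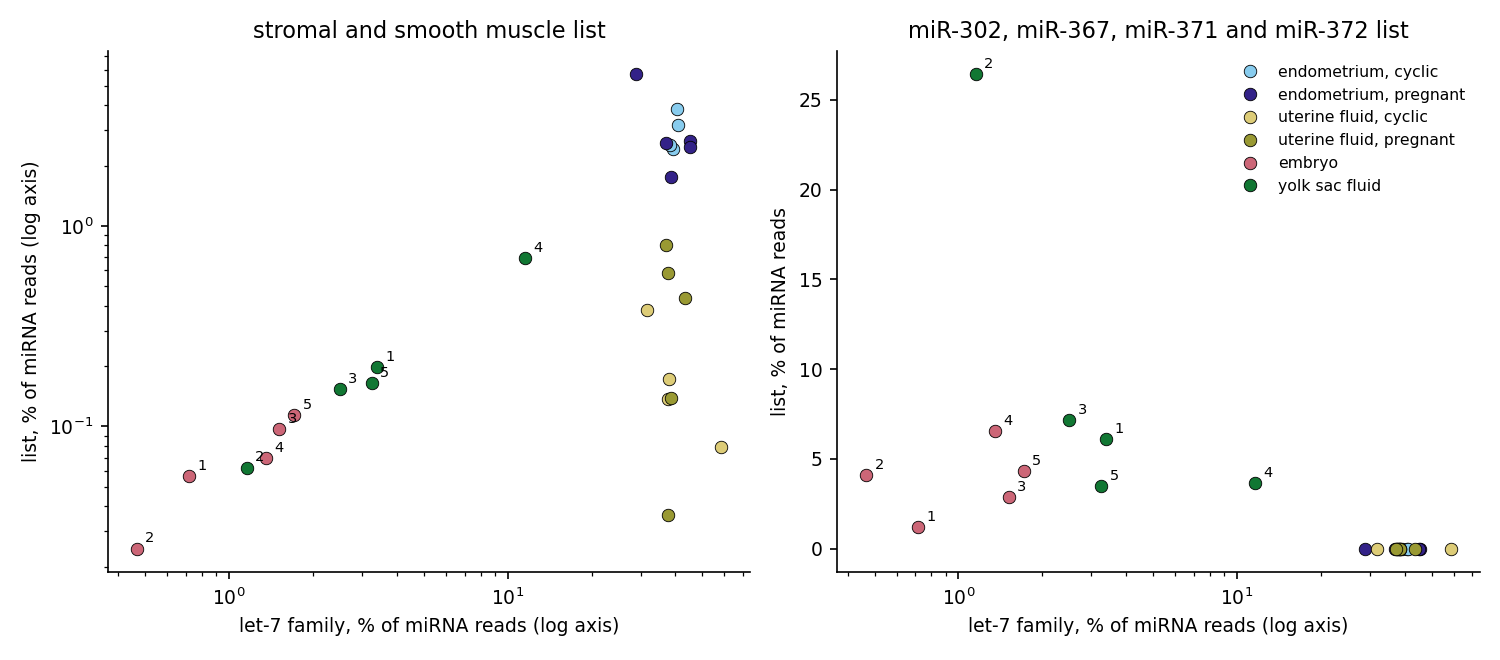
Each point is a library, with the let-7 family on the x axis and, on the y axis, the stromal and smooth muscle list (left, both axes log) or the list of miR-302, miR-367, miR-371 and miR-372 (right, linear y axis), all as % of miRNA reads; numbers give the mare. Embryos and YS fluids rise together in let-7 and the stromal list from the embryo of mare 2 at 0.467% and 0.0246% to the YS fluid of mare 4 at 11.6% and 0.689%, and the second list reaches 26.4% in the YS fluid of mare 2.

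The miRNAs of pluripotent cells showed the opposite distribution. miR-302a to d, miR-367, miR-371 and miR-372, listed by 8 names and expressed in stem cells and early embryos, took 1.202% to 6.53% of reads in embryos and 3.49% to 26.4% in YS fluid. The YS fluid of mare 2 was the highest in this list and the lowest in let-7. No maternal library held more than 4 reads of the list. miR-302a, for example, had 55 to 374 reads in the embryos and 17 to 240 in the YS fluids, against 0 or 1 in pregnant endometrium. As these miRNAs entered the fits through the conceptus libraries alone, no test against endometrium is given for them. Between embryo and YS fluid 0 of 8 were called, where 35.1% of all tested were called in either direction. Across the 28 libraries and 144 known miRNAs outside the family with a mean of at least 100 CPM, the least like the let-7 sum were miR-302c, miR-302b and miR-302d, with Pearson's r of −0.967, −0.966 and −0.965 on log2 CPM. The most alike were miR-204b at 0.992, miR-10a at 0.984, miR-181a at 0.977, miR-155 at 0.965 and miR-24 at 0.962. The libraries share the split into maternal and conceptus groups, and these correlations describe that split. The 21 pairs of let-7 members had r between 0.967 and 0.996.

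UF was also set against endometrium of the same state. In pregnant mares 1 of 7 members was called, miR-98, which was higher in UF, where 13.6% of all 359 miRNAs tested were called higher. miR-98 took 0.361%, 0.428%, 0.669%, 0.628% and 0.532% of reads in pregnant UF of mares 1 to 5, and 0.272%, 0.208%, 0.279%, 0.214% and 0.174% in the endometrium. Every UF value exceeded every endometrial value, as for 11.1% of all tested in that direction. Normalized levels were 5030 ± 1389 CPM in UF and 2430 ± 671 in endometrium (SD, n = 5 each). The log2 fold change was 1.05 ± 0.27 (SE, FDR 0.00649, edgeR), and miR-98 was higher in 5 of 5 mares. The change lay at the fold threshold. It fell below a fold of 2 with RLE size factors, with DESeq2, without the low-count filter and without mare 3, 4 or 5, with log2 fold changes from 0.88 to 0.99. The FDR stayed at or below 0.0456 in each of these.

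The other 6 members changed by −0.31 for let-7g to 0.12 for let-7d on the log2 scale, with SEs of 0.21 to 0.26, beside a median of −0.12 for all tested. In cyclic mares 0 of 7 were called, where 30.8% of all 328 tested were called in either direction, and 0 of 7 had an unadjusted p under 0.05. DESeq2 also called 0 of 7. miR-98 took 0.318%, 0.430%, 0.409% and 0.361% of reads in cyclic UF of mares 1 to 4, and 0.280%, 0.235%, 0.204% and 0.249% in the endometrium. The groups did not overlap, as for 8.23% of all tested in that direction. The log2 fold change of miR-98 was 0.55 ± 0.32 (SE, FDR 0.219, edgeR), higher in 4 of 4 mares.

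Expressed within the family, miR-98 formed 0.588% ± 0.0307 of the let-7 reads in pregnant endometrium and 1.34% ± 0.304 in pregnant UF (SD, n = 5 each). The corresponding values were 0.609% ± 0.0921 and 0.963% ± 0.283 in cyclic mares (SD, n = 4 each), where the ranges of 0.499% to 0.712% and 0.700% to 1.36% overlapped. let-7c, close in sequence to let-7a, also varied in UF. In cyclic UF 1.40, 0.823, 0.874 and 1.02 reads of let-7c were counted per read of let-7a in mares 1 to 4, without overlap with the 0.630 to 0.785 of cyclic endometrium. In pregnant UF the ratio was 0.944, 0.818, 0.498, 0.466 and 0.773, a range that spanned that of pregnant endometrium. These shares are descriptions without a test.

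**Figure D4:**
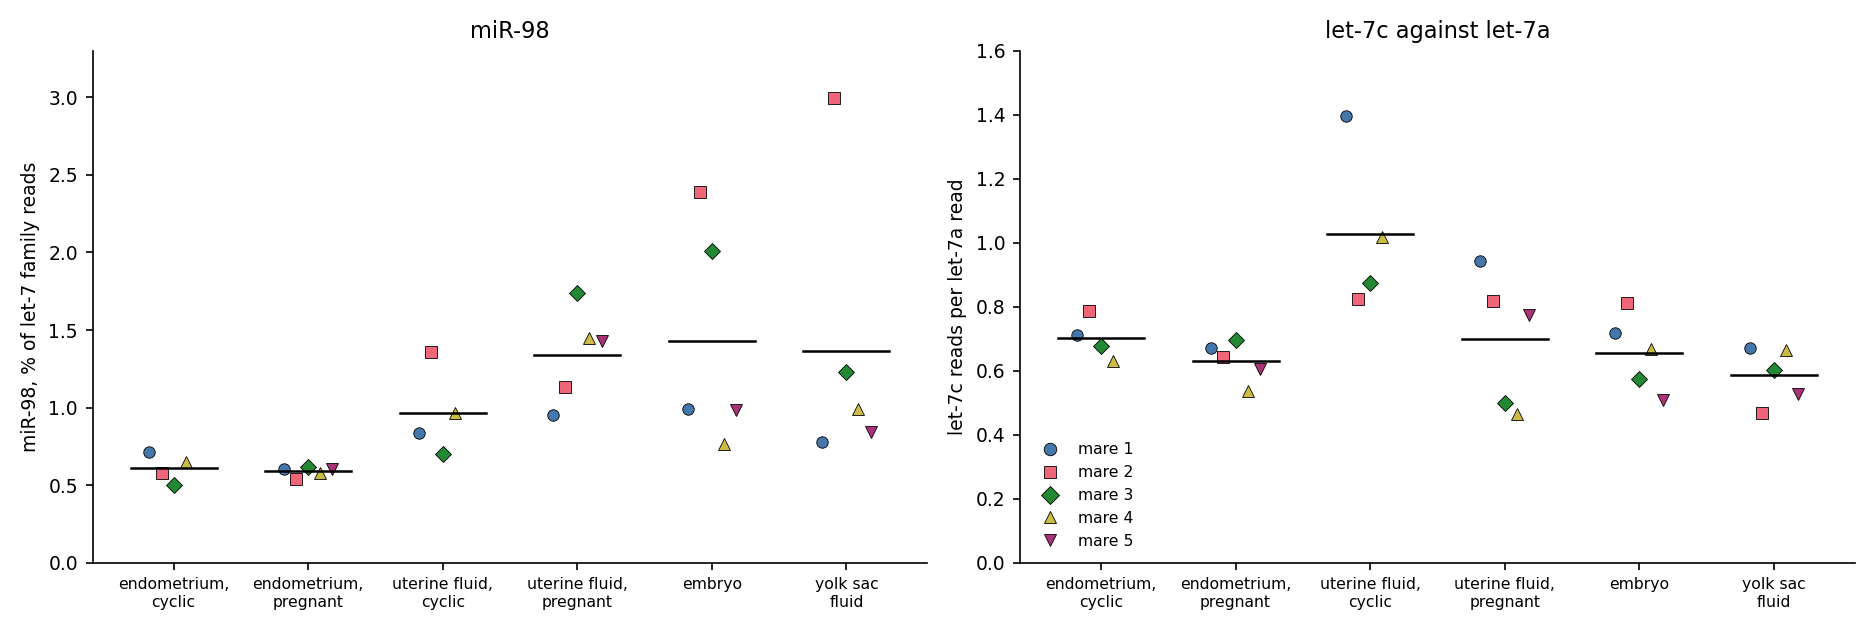
Left, miR-98 as % of the let-7 family reads; right, let-7c reads per let-7a read; each symbol is a library marked by mare, and the line is the group mean. miR-98 lies between 0.540% and 0.617% in pregnant endometrium and between 0.955% and 1.74% in pregnant UF, and the highest ratio of let-7c to let-7a is 1.40 in the cyclic UF of mare 1.

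The cluster partners of the let-7 genes were compared in the same fits. Of miR-99a, miR-99b, miR-100, miR-125a-5p and miR-125b-5p, 3 of 5 were lower in pregnant UF than in pregnant endometrium, where 20.1% of all tested were called lower. These were miR-100 at −3.77 on the log2 scale, miR-99a at −2.48 and miR-125b-5p at −1.80, all partners of the let-7a and let-7c clusters. miR-125a-5p, at −0.35 ± 0.36, and miR-99b, at −0.19 ± 0.45 (SE), both neighbours of let-7e, did not pass. In cyclic mares the same 3 passed, at −3.97 for miR-100, −3.14 for miR-99a and −2.04 for miR-125b-5p, where 18.9% of all tested were called lower. let-7a and let-7c themselves changed by −0.20 ± 0.21 and −0.12 ± 0.24 in pregnant mares, and by −0.22 ± 0.33 and 0.29 ± 0.33 in cyclic mares (SE). Another let-7a gene, MIRLET7A-2, lay beside no miRNA gene. As let-7a was counted as a single entry, its reads cannot be assigned to the gene in the cluster. In the embryo 5 of 5 partners were lower than in pregnant endometrium, where 42.6% of all tested were called lower. They ran from −6.31 for miR-99a to −3.56 for miR-99b. In YS fluid, where 35.2% of all tested were called lower than in pregnant endometrium, miR-99a had no read in any library. There miR-100 had 1 read, in mare 4. miR-125b-5p was lower at −4.62, miR-125a-5p at −2.18 and miR-99b at −1.85, beside −5.20 for let-7e, of the same cluster as the latter pair. Without mare 4 these 3 remained called, at −5.31, −2.16 and −1.98. Between embryo and YS fluid 2 of the 3 partners tested were lower in the embryo, miR-125a-5p at −3.58 and miR-99b at −1.74, where 13.1% of all tested were called lower. Without mare 4 miR-125a-5p remained called at −3.71, and miR-99b, at −1.62 (FDR 0.0580, edgeR), did not. miR-99b had 1 to 6 reads per embryo and 2 to 8 per YS fluid, and miR-125a-5p 0 to 3 and 1 to 19.

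Last, pregnant mares were compared with cyclic mares, with the mare as a block, so that mare 5 did not enter the contrast. In endometrium 0 of 7 members were called, where 3.37% of all 386 miRNAs tested were called, all of them higher in pregnancy. The paper describes the predicted miRNAs, which are among those tested, as likely overestimated through duplicates of nearly equal counts. With known miRNAs only, 2 of 267 tested were called, or 0.749%, and 0 of 7 members. DESeq2 also called 0 of 7. let-7g took 2.00%, 1.79%, 1.74% and 1.78% of reads in cyclic endometrium of mares 1 to 4, and 2.40%, 2.04%, 1.92%, 2.61% and 1.66% in pregnant endometrium of mares 1 to 5. By read share the groups overlapped through mare 5, whereas the 4 mares with both states were each higher in pregnancy. On the TMM scale of this comparison the groups did not overlap, as for 2.59% of all tested in that direction. The log2 fold change of let-7g was 0.52 ± 0.18 (SE, FDR 0.109, edgeR), which did not pass. The unadjusted p was under 0.05 for let-7g, for let-7a, at 0.32 ± 0.13, and for let-7f, at 0.40 ± 0.17 (SE, FDR 0.223 for both, edgeR). The other 4 members lay between 0.17 and 0.32, so 7 of 7 were positive, beside a median of 0.08 for all tested. With library totals alone the members lay between −0.06 and 0.29, and let-7c was negative.

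In UF 0 of 7 members were called, where 4.92% of all 305 miRNAs tested were called in either direction. With known miRNAs only, 3 of 220 tested were called, and 0 of 7 members. DESeq2 also called 0 of 7. The changes ran from −0.39 ± 0.29 for let-7c to 0.62 ± 0.30 for let-7f (SE), and let-7f was the member with an unadjusted p under 0.05 (FDR 0.355, edgeR). With a mare left out, let-7c lay between −0.70 without mare 2 and −0.072 without mare 3, and let-7f between 0.298 without mare 4 and 0.718 without mare 3. let-7f took 2.06%, 3.37%, 4.33% and 3.10% of reads in cyclic UF of mares 1 to 4, and 2.89%, 3.95%, 5.62%, 6.37% and 3.78% in pregnant UF of mares 1 to 5. The groups overlapped, although 4 of 4 mares were higher in pregnancy. An interaction term set the change with pregnancy in UF against that in endometrium, and 0 of 7 members were called for it, where 1.69% of all 415 tested were called, and 0 of 7 had an unadjusted p under 0.05. The largest difference was that of let-7c at −0.68 ± 0.37 (SE, FDR 0.809, edgeR). It lay between −0.94 without mare 2 and −0.079 without mare 3.

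In all 6 groups let-7a and let-7c had the most reads of the family, whereas the shares of some members differed between groups. eca-let-7a held 41.1% to 49.2% of let-7 reads over the 6 groups, and the largest group mean in 5 of them. eca-let-7c held 28.6% to 41.5% and in cyclic UF was level with let-7a, at 41.5% against 41.1%. eca-let-7f held 7.93% to 14.0%. eca-let-7g held 4.58% to 5.81%, eca-let-7d 1.84% to 2.31%, eca-let-7e 1.61% to 2.21% and eca-miR-98 0.588% to 1.43%. As levels between different miRNAs also depend on how well each is captured in library preparation, the order of members is that of reads. Embryos held the largest share of let-7f, at 14.4%, 15.8%, 14.1%, 12.3% and 13.5% in mares 1 to 5. These did not overlap with the 9.85% to 10.7% of pregnant endometrium, touched the highest YS fluid at 12.3% and overlapped with pregnant UF. In embryos let-7f rested on 29 to 96 reads.

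**Figure D5:**
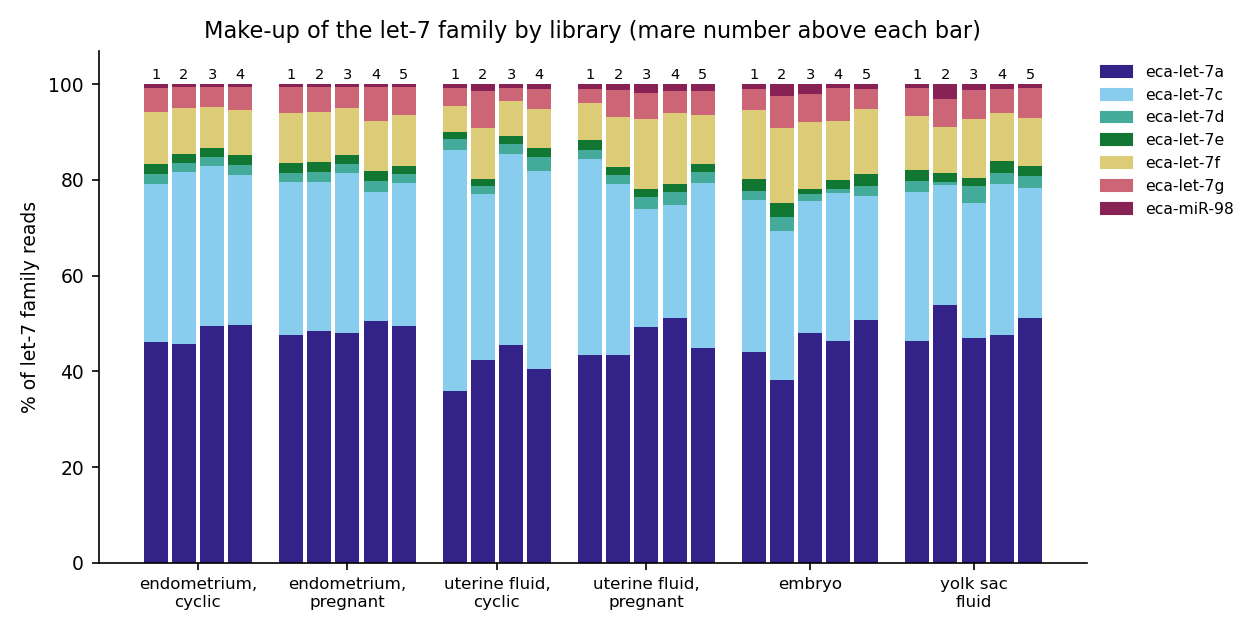
Share of each member in the let-7 family reads (y axis, %), with a bar for each library in the 6 groups and the mare number above it. let-7a and let-7c take between 69.4% and 86.2% of the family reads together, in libraries that differ in the level of the family.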

How the data were processed

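Small RNA libraries were analysed from endometrium, UF, embryo and YS fluid. The authors extracted total RNA, prepared TailorMix libraries with 18 PCR cycles and sequenced single reads. Adapter trimming and removal of reads that were short or of low quality used cutadapt 1.11, per the labels and the methods. They counted reads on horse miRNAs of miRBase and on predicted miRNAs (EquCab2.0) with miRPro. The authors deposited raw read counts per miRNA. Another table, of precursors, equalled the predicted miRNAs in 154 of 154 entries and entered no test.

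The members and lists were chosen with earlier results of these data known. Named were the 7 members, 5 cluster partners, the 8 pluripotency miRNAs and the miRNAs most and least like the let-7 sum. Marker lists of other cell types were fixed with them.

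Known and predicted miRNAs were fitted together with edgeR 4.0.16 in R 4.3.3: at least 1 CPM in as many libraries as the smaller group, TMM normalization, the quasi-likelihood test and Benjamini-Hochberg adjustment. SEs are the coefficient over the root of F. The study's thresholds were used. The mare was a block in pregnant against cyclic samples, whose mean same-mare correlation of deviations was 0.158 in endometrium and 0.254 in UF, against −0.040 and −0.063 between mares. The pairing comes from the study's design. Without a block, p-values measure the spread between mares. With the mare as a block they measure the spread of the differences within mares. Likeness used log2 TMM CPM with a prior count of 2. Alternatives were RLE, library totals alone, a likelihood ratio test, DESeq2 1.42.0, no filter, filterByExpr with a minimum count of 10, known miRNAs only, the FDR alone, libraries thinned to the smallest, 28 libraries together, the block removed or added and each mare left out. The methods were tested on simulated data. Python 3.11.15 with pandas 2.3.3 was used for shares. Of 52 pairs of libraries within a group, 0 held identical values. Sequences of the members were not used here, and gene positions of RefSeq served only to find neighbours.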

Additional observations from a re-analysis of the deposited data

Results flagged for a closer look

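In 96 sets of 4 or 5 libraries, each member and the sum were examined for a library far from the others, and 17 sets had such a library. For a single set chance gives about 1 in 20. The sets share libraries and the members vary together, so the count of 17 cannot be set against that rate. The YS fluid of mare 4 accounted for 10 of the 17. On the TMM scale its levels were 33163 CPM for let-7a, 22062 for let-7c, 1665 for let-7d, 1665 for let-7e, 7077 for let-7f, 3469 for let-7g and 694 for miR-98, and 69794 for the sum, whereas the next highest YS library was at 13001 for the sum. Its read share of the family was 11.6%, against 3.39% in the next. Within the family its let-7g share, 4.97%, was the lowest of the YS fluids.

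The cyclic UF of mare 3 was high for let-7a at 454665 CPM and for the sum at 997284 CPM. The cyclic endometrium of mare 3 was high for let-7c at 257366 CPM. The pregnant UF of mare 4 was high in the read share of the sum, at 43.4%. In pregnant endometrium, mare 3 was low in the let-7f share of the family, at 9.85%. The embryo of mare 3 was high for miR-98 at 190 CPM, from 11 reads, and the YS fluid of mare 2 was high in the miR-98 share of the family at 2.99%, from 5 reads.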

How the results depend on the processing

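The 28 decreases of the members in embryo or YS fluid against endometrium or UF stayed called under every alternative run, each omission of a mare included. Their size depended on the scaling and on mare 4 of YS fluid, as given above. With RLE size factors the summed level was 432559 CPM in cyclic and 443245 in pregnant endometrium. With library totals alone it was 398291 in cyclic endometrium, 389401 in pregnant endometrium, 388829 in pregnant UF and 11527 in the embryo. Leaving out a mare moved the YS mean to between 8753 and 25173 CPM.

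Between embryo and YS fluid, where 0 members were called, library totals alone and DESeq2 each called 4 lower in the embryo, beside 21.2% and 15.8% of all tested. filterByExpr, known miRNAs only and thinning each called 3, beside 19.5%, 16.7% and 11.5%, and the fit of 28 libraries 6, beside 16.8%. The share was 13.1% in the fit reported. filterByExpr dropped let-7d, let-7e and miR-98 there. The cause was not tested. miR-98 in pregnant UF against endometrium lost its call (0 of 7 members called) with RLE at 0.989, with DESeq2 at 0.989 and without the filter at 0.920. Its log2 fold change lay between 0.884 and 1.231 with a mare left out, and 0 to 1 members were called.

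The replicate block changed no call. In the paired fit for pregnant UF against endometrium miR-98 was at 1.05 (FDR 0.0109, edgeR), and let-7f turned to −0.013. Without the block, let-7d in pregnant against cyclic UF turned to −0.126.

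Other reversals were of changes that no setting called. In pregnant against cyclic endometrium let-7c was −0.062 with totals alone. In pregnant against cyclic UF let-7d was −0.040 with totals alone, −0.013 with filterByExpr and −0.060 with 28 libraries. In pregnant UF against endometrium let-7a was 0.054 thinned. let-7c was 0.031 with totals alone, 0.052 with known miRNAs only and 0.124 thinned. let-7d was −0.0090 without the filter, and let-7f was −0.029 with RLE, −0.029 with DESeq2 and −0.095 without the filter. In cyclic UF against endometrium let-7a was 0.085 with RLE and DESeq2, 0.137 with filterByExpr and 0.211 thinned. let-7e was 0.024 with filterByExpr and 0.074 thinned, and let-7f was 0.065 thinned. let-7g was 0.064 with RLE and DESeq2, 0.123 with filterByExpr, 0.013 with known miRNAs only, 0.184 thinned and 0.031 with 28 libraries. In the interaction let-7a was 0.049 with RLE and 0.071 with totals alone, and let-7e was 0.012 and 0.029.

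With a mare left out, some small changes also turned sign. In pregnant against cyclic endometrium let-7c ranged from −0.076 to 0.242, let-7d from −0.0072 to 0.271 and miR-98 from −0.092 to 0.315. In pregnant against cyclic UF let-7a ranged from −0.043 to 0.495, let-7d from −0.140 to 0.175 and let-7g from −0.105 to 0.262. In pregnant UF against endometrium let-7d ranged from −0.029 to 0.212 and let-7f from −0.200 to 0.237. In cyclic UF against endometrium let-7d ranged from −0.014 to 0.430, let-7f from −0.580 to 0.030 and let-7g from −0.255 to 0.122. In the interaction let-7a ranged from −0.196 to 0.285, let-7d from −0.379 to 0.098 and let-7e from −0.305 to 0.321. The within-family shares moved by less than 1 SD with reads pooled over a group. With a mare left out a group mean cannot move by 1 SD, whatever the values, so that omission is no check of the shares. Both were chosen after seeing the data, as was the fit of the cluster partners without mare 4 of YS fluid. Depth limits let-7d, let-7e and miR-98 most, with 1 to 18 reads per embryo or YS library.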
